A study of Vitis x labruscana x Vitis vinifera with 36 samples.

Results

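The 9 genes described here belong to the pathway of gibberellin (GA), a plant hormone. They are 9 of the 30661 rows of a table of read counts from berries of the table grape 'Shine Muscat', chosen by a list of identifiers. By class, in the order of that list, they are 3 DELLA genes (VIT_01s0011g05260, VIT_14s0006g00640 and VIT_11s0016g04630), 2 genes of the GA receptor GID1 (VIT_14s0108g00740 and VIT_07s0104g00930), 3 genes of GA 2-oxidases (VIT_19s0177g00030, VIT_19s0140g00120 and VIT_10s0116g00410) and 1 gene of a GA 20-oxidase (VIT_16s0022g02310). These classes come from the list and were not checked against an annotation. No position or sequence of the genes is given, since the table holds identifiers and counts only.

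Gibberellin is bound in the cell by GID1, and the bound receptor takes hold of DELLA proteins, which restrain growth and are then broken down. GA 20-oxidases carry out late steps of synthesis, and GA 2-oxidases inactivate the hormone. In Arabidopsis the pathway feeds back on itself: active gibberellin lowers the transcripts of GID1 receptors and GA 20-oxidases and raises those of GA 2-oxidases. Developing seeds are a source of gibberellin in many fruits, and table grapes are commonly made seedless by applying it around bloom.

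All groups share the genotype 'Shine Muscat', which comes from a cross between Vitis labruscana and Vitis vinifera. RNA was sequenced from seedless and from seeded berries, in skin and in flesh, at stages numbered 1, 3 and 4, which gives 12 groups of 3 libraries. By the title of the series, a treatment made the berries seedless, and the seeded ones were left without it. The sources used here do not give the agent, its dose, the age of the berries at each stage or the number of vines or berries behind a library. The labelled tissues could not be checked against marker genes, because the table pairs no identifier with a gene name.

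The 36 libraries held 0.609 to 7.34 M reads (M, mega). The shallowest groups were seeded flesh at stage 1, with 0.609 to 1.25 M, and seeded skin at stage 1, with 1.12 to 2.38 M. Libraries of these groups also resembled each other least, with correlations within a group of 0.883 to 0.953, against at least 0.966 in the other 10 groups. The part of depth and of this spread in the results of stage 1 was not tested, apart from a repeat with all libraries thinned to an equal depth, which is also named below for the calls it ended. At equal depth VIT_01s0011g05260, VIT_19s0177g00030 and VIT_10s0116g00410 had too few reads to be tested, as had VIT_19s0140g00120 in flesh. Their counts of alternatives leave that repeat out. Levels are given as CPM, the counts of a gene relative to the library's total after TMM scaling, and they come from bulk tissue, so fewer cells of a type and less RNA per cell cannot be told apart.

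The receptor gene VIT_14s0108g00740 was the member with the most reads, and it was higher in seedless than in seeded skin at stage 1. The seedless skin libraries of stage 1 held 607, 570.5 and 575 CPM of it, against 111, 255 and 132 CPM in seeded skin. The lowest seedless library was thus above the highest seeded one. The difference was 1.86 ± 0.26 on the log2 scale (SE), or 3.63-fold, with an edgeR adjusted p of 0.00017, and it stayed past the threshold of 0.05 in 14 of 14 alternatives, which included the thinned libraries.

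At the later stages of skin the same receptor gene averaged 554.8 ± 47.4 CPM in seedless and 371.9 ± 66.4 CPM in seeded berries at stage 3 (SD, n = 3 each). At stage 4 it averaged 610.1 ± 86.3 CPM in seedless and 360.9 ± 62.9 CPM in seeded skin. The seedless libraries lay above the seeded ones at both stages without overlap, but the edgeR adjusted p was 0.15 at stage 3 for 0.58 ± 0.23 log2, and 0.12 at stage 4 for 0.75 ± 0.24 log2. The call at these stages depends on the fit. With only the 6 libraries compared, the edgeR adjusted p was 0.0014 at stage 3 and 0.0015 at stage 4. DESeq2 on the 18 skin libraries gave an adjusted p of 0.05 at stage 4, just under the threshold, and stage 4 passed in 3 of 14 alternatives, against 1 of 14 at stage 3.

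In flesh VIT_14s0108g00740 was not called at any stage. At stage 1 the seedless flesh libraries held 76.8, 80.2 and 59.5 CPM, against 73.7, 65.7 and 71.0 CPM in seeded flesh. These ranges overlap, and the log2 difference was 0.05 ± 0.19 (edgeR adjusted p = 0.9). At stage 3 the difference was -0.34 ± 0.17 log2 (edgeR adjusted p = 0.2), and at stage 4 it was 0.57 ± 0.19 log2 (edgeR adjusted p = 0.086). Leaving out 1 seeded library moved each of these past the threshold: without seeded flesh replicate 1 of stage 3 the edgeR adjusted p was 0.047, and without seeded flesh replicate 2 of stage 4 it was 0.04. The gap between the tissues was tested itself at stage 1. The seedless-seeded difference was larger in skin than in flesh by 1.83 ± 0.35 log2 (edgeR adjusted p = 0.0042), a test past the threshold for 2.18% of all genes tested. It was not past the threshold without the libraries numbered 3 (1.58 log2, edgeR adjusted p = 0.24).

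**Figure D1:**
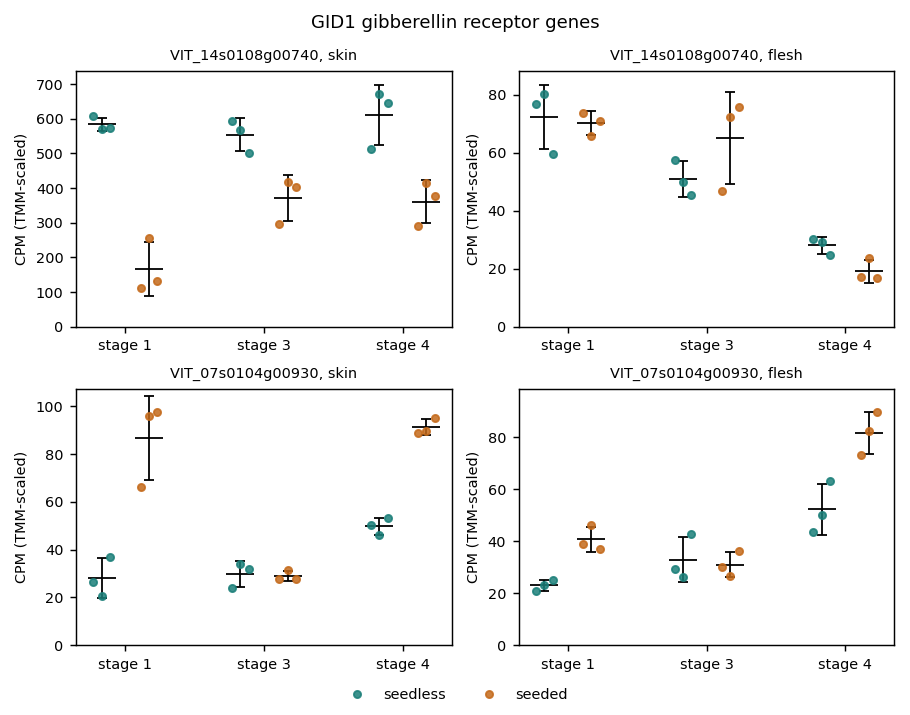
Levels of the 2 GID1 receptor genes in CPM (linear axes) for each library, by tissue, stage and treatment; points are libraries, horizontal ticks are group means and error bars are SD (n = 3). In skin at stage 1 seedless libraries reach 570.5 to 607 CPM of VIT_14s0108g00740, while the seeded ones stay at or below 255 CPM, and VIT_07s0104g00930 runs the other way.

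The other receptor gene, VIT_07s0104g00930, was lower in seedless skin at stages 1 and 4. At stage 1 it had 26.6, 20.5 and 37.0 CPM in seedless skin, against 66.4, 96.1 and 97.4 CPM in seeded skin. The libraries did not overlap, and the log2 difference was -1.61 ± 0.18 (edgeR adjusted p = 1.9e-08). At stage 3 the seedless skin libraries held 23.8, 34.1 and 32.0 CPM and the seeded ones 27.9, 31.5 and 27.7 CPM, which overlap (0.05 ± 0.18 log2, edgeR adjusted p = 0.91). By stage 4 the gap was present again, with 50.2, 45.9 and 53.1 CPM in seedless skin and 89.0, 89.7 and 95.2 CPM in seeded skin (-0.88 ± 0.16 log2, edgeR adjusted p = 0.00061). The calls of stages 1 and 4 in skin were kept in 14 of 14 alternatives each.

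In flesh VIT_07s0104g00930 was also lower in seedless berries at stages 1 and 4. At stage 1 seedless flesh had 20.9, 23.3 and 25.1 CPM and seeded flesh 39.0, 46.2 and 36.8 CPM (-0.78 ± 0.23 log2, edgeR adjusted p = 0.017). At stage 4 the values were 43.7, 50.05 and 63.0 CPM in seedless flesh and 73.3, 82.2 and 89.5 CPM in seeded flesh (-0.63 ± 0.17 log2, edgeR adjusted p = 0.021). Neither pair of groups overlapped, while at stage 3 they did (0.10 ± 0.18 log2, edgeR adjusted p = 0.8). The change of the flesh difference between stages did not pass its own test. It was 0.88 ± 0.29 log2 at stage 3 against stage 1 (edgeR adjusted p = 0.057, past the threshold in 7 of 19 alternatives). At stage 4 against stage 3 it was -0.73 ± 0.24 log2 (edgeR adjusted p = 0.091, 2 of 19). Both flesh calls were lost in some alternatives, while the log2 difference stayed between -0.85 and -0.68 at stage 1 and between -0.80 and -0.52 at stage 4 in all 14. At stage 1 the edgeR adjusted p was 0.054 without seedless replicate 1, 0.067 without seeded replicate 2 and 0.094 at equal depth (-0.73 log2). At stage 4 it was 0.15 and 0.12 without seedless replicates 1 and 2, 0.057 and 0.13 without seeded replicates 2 and 3, and 0.064 at equal depth (-0.75 log2). Whether the difference was larger in skin than in flesh did not pass the test at stage 1 (-0.81 ± 0.30 log2, edgeR adjusted p = 0.15).

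Because the receptor genes moved in opposite directions in skin at stage 1, the make-up of the pair's reads differed between the groups. VIT_14s0108g00740 took 95.4 ± 1.3% of the reads of both genes in seedless skin and 64.2 ± 7.7% in seeded skin at stage 1 (SD, n = 3 each). At stage 3 its share was 94.8 ± 1.2% in seedless and 92.6 ± 1.1% in seeded skin, and at stage 4 it was 92.4 ± 1.3% in seedless and 79.6 ± 2.8% in seeded skin. In flesh the share was 75.5 ± 4.5%, 61.0 ± 8.3% and 35.3 ± 6.6% in seedless flesh at stages 1, 3 and 4, and 63.3 ± 4.0%, 67.2 ± 6.1% and 19.0 ± 3.3% in seeded flesh. These shares are of reads, not of transcripts per length, and are given without a test.

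**Figure D2:**
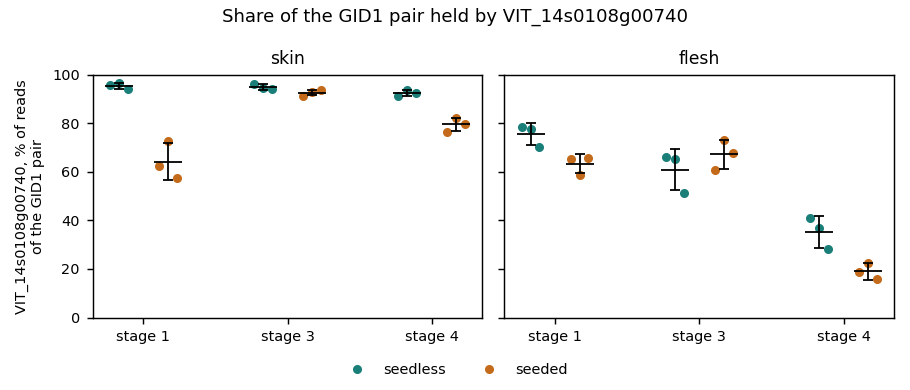
Share of the reads of both GID1 genes that fell on VIT_14s0108g00740, in percent, for each library by tissue, stage and treatment; horizontal ticks are group means and error bars are SD (n = 3). Seedless skin stays between 92.4% and 95.4% on average, while seeded skin starts at 64.2% at stage 1.

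Of the 3 DELLA genes, 2 passed the test between seedless and seeded berries, each in 1 of the 6 comparisons. Of all genes, 17.1% passed in flesh at stage 1 and 10.6% in skin at stage 3, the comparisons concerned. The share of all genes that passed in at least 1 of the 6 was not counted. VIT_14s0006g00640 was lower in seedless flesh at stage 1, with 37.5, 34.2 and 31.4 CPM, against 67.9, 51.5 and 80.5 CPM in seeded flesh. All seedless libraries lay below all seeded ones, and the log2 difference of -0.98 ± 0.20 (edgeR adjusted p = 0.00041) was kept in 14 of 14 alternatives. In the other 5 comparisons of seedless with seeded berries this gene did not pass the test, with log2 differences between -0.26 and 0.38. In skin at stage 1 the difference was -0.26 ± 0.18 log2, and without seeded skin replicate 3 it was -0.49 log2 with an edgeR adjusted p of 0.048. In skin at stage 4 its seedless libraries, at 47.3, 49.7 and 64.0 CPM, were above the seeded ones, at 40.3, 38.6 and 44.2 CPM, but the edgeR adjusted p was 0.25. In flesh at stage 4 they were below the seeded ones, at 37.2 to 37.6 CPM against 43.8 to 46.1 CPM (-0.25 ± 0.17 log2, edgeR adjusted p = 0.52).

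VIT_11s0016g04630 was higher in seedless skin at stage 3, with 103, 117 and 94.1 CPM, against 80.6, 77.5 and 72.8 CPM in seeded skin. The libraries did not overlap, and the log2 difference was 0.44 ± 0.13 (edgeR adjusted p = 0.025). That call depends on single libraries: the edgeR adjusted p was 0.15 without seedless replicate 2, 0.065 and 0.1 without seeded replicates 2 and 3, and 0.25 at equal depth. At stage 4 of skin the gene averaged 76.6 ± 9.1 CPM in seedless and 98.6 ± 21.0 CPM in seeded berries (-0.35 ± 0.13 log2, edgeR adjusted p = 0.15), and without seeded skin replicate 2 the edgeR adjusted p was 0.029. VIT_01s0011g05260 had few reads, 2 to 53 in a library, and no comparison of seedless with seeded berries passed the test for it. Its largest difference was in flesh at stage 1, where seedless libraries held 3.72, 3.92 and 2.46 CPM and seeded ones 15.9, 7.10 and 5.13 CPM (-1.39 ± 0.55 log2, edgeR adjusted p = 0.078). Those libraries did not overlap. DESeq2 gave an adjusted p of 0.035, and edgeR gave 0.047 without seeded replicate 3 (-1.78 log2) but 0.48 without seeded replicate 1 (-0.77 log2), the library at 15.9 CPM.

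**Figure D3:**
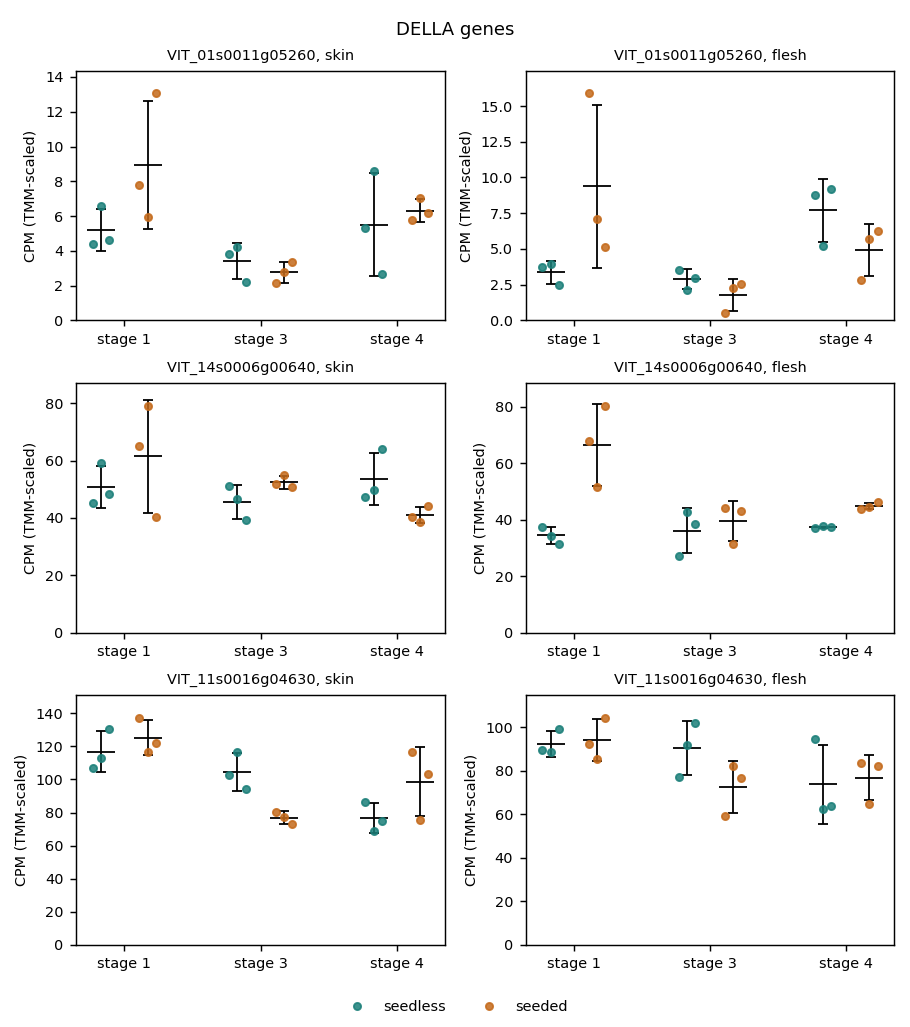
Levels of the 3 DELLA genes in CPM (linear axes) for each library, by tissue, stage and treatment; points are libraries, horizontal ticks are group means and error bars are SD (n = 3). The seedless flesh libraries of stage 1 lie below the seeded ones for VIT_14s0006g00640, at 31.4 to 37.5 CPM against 51.5 to 80.5 CPM.

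Of the GA 2-oxidase genes, VIT_19s0140g00120 and VIT_19s0177g00030 were lower in seedless than in seeded skin at stage 1, and VIT_10s0116g00410 was not called. VIT_19s0140g00120 had 10.6, 16.0 and 14.2 CPM in seedless skin, against 42.6, 27.7 and 33.7 CPM in seeded skin. Every seedless library was below every seeded one (-1.40 ± 0.25 log2, edgeR adjusted p = 6.3e-05, kept in 14 of 14 alternatives). At stages 3 and 4 of skin its groups overlapped, with log2 differences of 0.04 ± 0.24 and -0.02 ± 0.27. In flesh at stage 1 it had 4.58, 8.36 and 2.46 CPM in seedless and 8.67, 7.10 and 26.5 CPM in seeded berries, which overlap (-1.58 ± 0.62 log2, edgeR adjusted p = 0.082). Single libraries and the fit decide this call, which passed in 3 of 13 alternatives. Without seeded flesh replicate 3, the library at 26.5 CPM, the difference was -0.60 log2 (edgeR adjusted p = 0.69). Leaving out replicate 2 of the seedless flesh gave -2.12 log2 (edgeR adjusted p = 0.04). With no filter it was -1.55 log2 (edgeR adjusted p = 0.0087), and with only the 6 libraries compared it was -1.60 log2 (edgeR adjusted p = 0.034).

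VIT_19s0177g00030 was found at a low level in skin. At stage 1 the seedless skin libraries held 0, 13 and 9 reads of it and the seeded ones 33, 19 and 48 reads, from fewer reads in total. That is 0, 4.51 and 2.45 CPM in seedless skin, against 15.1, 18.8 and 26.1 CPM in seeded skin. Over the pooled reads the seedless level was 0.106 times the seeded level (exact 95% interval 0.0637 to 0.17, counting error only), and the fitted log2 difference was -3.19 ± 0.63 (edgeR adjusted p = 0.0007, kept in 13 of 13 alternatives). Equal depth is not among these, since the gene had too few reads there to be tested. At stage 3 the groups overlapped, with 6.65, 3.74 and 5.83 CPM in seedless and 3.78, 6.77 and 1.54 CPM in seeded skin (0.41 ± 0.58 log2, edgeR adjusted p = 0.73). By stage 4 the order had turned, with 22, 28 and 37 reads in seedless skin and 5, 6 and 2 reads in seeded skin. The pooled ratio there was 5.71 (interval 3.17 to 11.1), but the log2 difference of 2.44 ± 0.70 had an edgeR adjusted p of 0.056 and passed in 4 of 13 alternatives.

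VIT_10s0116g00410 had 504 reads in the 18 skin libraries and 8 in the 18 flesh libraries. Its mean was higher in seedless than in seeded skin at each stage, and no stage passed the edgeR test. At stage 1 it had 12.1, 15.6 and 14.2 CPM in seedless skin, against 2.75, 2.97 and 11.4 CPM in seeded skin (1.22 ± 0.51 log2, edgeR adjusted p = 0.098). At stage 3 it had 11.6, 8.65 and 11.1 CPM in seedless skin, against 1.42, 7.70 and 2.56 CPM in seeded skin (1.41 ± 0.47 log2, edgeR adjusted p = 0.055). The libraries of both stages did not overlap, and 1 seeded library in each was closer to the seedless ones. Without seeded skin replicate 3 of stage 1 the difference was 2.28 log2 (edgeR adjusted p = 0.0081), and without seeded skin replicate 2 of stage 3 it was 2.39 log2 (edgeR adjusted p = 0.0018). Stage 3 passed in 6 of 13 alternatives, among them DESeq2 (adjusted p = 0.032) and a minimum count of 30 (edgeR adjusted p = 0.049). At stage 4 the groups overlapped (0.82 ± 0.49 log2, edgeR adjusted p = 0.45).

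**Figure D4:**
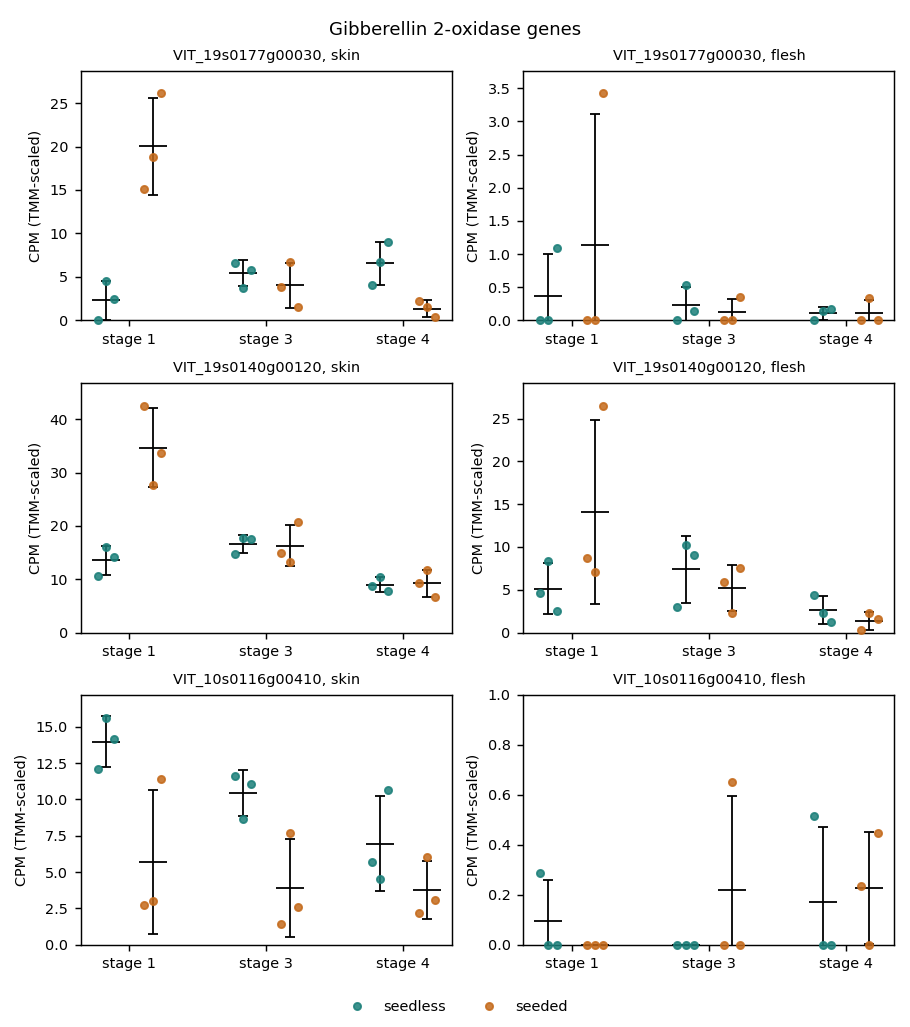
Levels of the 3 GA 2-oxidase genes in CPM (linear axes) for each library, by tissue, stage and treatment; points are libraries, horizontal ticks are group means and error bars are SD (n = 3), with error bars ended at 0. In skin at stage 1 the seeded libraries lie above the seedless ones for VIT_19s0177g00030 and VIT_19s0140g00120 and below them for VIT_10s0116g00410.

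The GA 20-oxidase gene VIT_16s0022g02310 was close to undetected. It had 4 reads in the 36 libraries, of which 3 lay in 1 seeded flesh library of stage 3 and 1 in a seedless skin library of stage 3. Its mean over the 36 libraries, each given equal weight, was 0.0338 CPM. A count of 0 over the pooled reads of all libraries would allow 0.0217 CPM (3 counts). That limit is a pooled value, so it is not the same measure as the mean. No comparison was possible for it at this depth, which does not show that the gene was silent.

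A test needed enough reads in at least 3 libraries, and 8 of the 9 genes met this in skin and 6 of 9 in flesh. Those left out in flesh had 17 reads (VIT_19s0177g00030), 8 reads (VIT_10s0116g00410) and 3 reads (VIT_16s0022g02310) over its 18 libraries. In flesh 2 of the 6 tested members were lower in seedless berries at stage 1, where 17.1% of all genes were called in either direction and 8.35% were lower. At stage 3 of flesh 0 of 6 were called by edgeR, beside 10.7% of all genes, while 2 had an unadjusted p under 0.05 and DESeq2 called 0. At stage 4 of flesh 1 of 6 was called, lower in seedless berries, beside 3.70% of all genes in either direction and 1.35% lower. In skin 4 of 8 tested members were called at stage 1, 1 higher and 3 lower in seedless berries, beside 20.2% of all genes in either direction, 10.4% higher and 9.87% lower. At stage 3 of skin 1 of 8 was called, higher in seedless berries, beside 10.6% of all genes in either direction and 5.14% higher. At stage 4 of skin 1 of 8 was called, lower in seedless berries, beside 3.48% in either direction and 1.42% lower.

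The median log2 difference over the tested members was -0.55, 0.36 and 0.18 in skin at stages 1, 3 and 4, against 0.02, 0.00 and -0.01 over all genes. In flesh it was -0.88, 0.22 and 0.25, against 0.05, 0.01 and 0.00. With 8 and 6 members, and members that passed the filter partly through 1 high group, these medians are a description only.

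**Figure D5:**
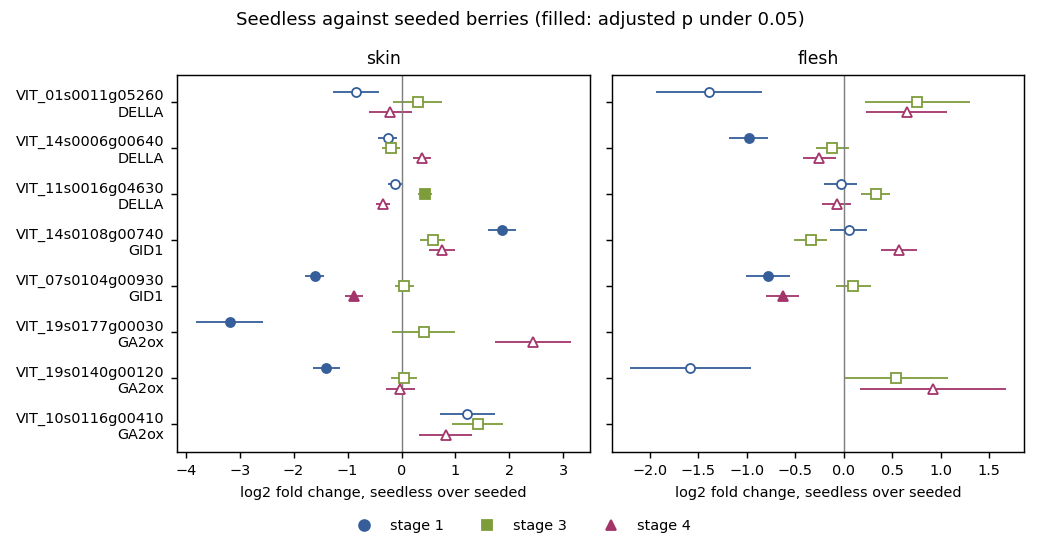
Log2 difference of seedless minus seeded berries for each tested gene at stages 1, 3 and 4, in skin and in flesh; points are edgeR estimates, bars are standard errors, and filled points passed the adjusted threshold of 0.05. Of the 9 filled points, 6 lie at stage 1, where more of all genes were also called (20.2% in skin and 17.1% in flesh). Of all genes, 10.6% in skin and 10.7% in flesh were called at stage 3, and 3.48% and 3.70% at stage 4. The filled points above 0 are VIT_14s0108g00740 in skin at stage 1 (1.86) and VIT_11s0016g04630 in skin at stage 3 (0.44).

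The change of the differences between stages was tested in its own right. In skin the seedless-seeded difference of VIT_07s0104g00930 was 1.65 ± 0.25 log2 higher at stage 3 than at stage 1 (edgeR adjusted p = 2.3e-05), and it differed by -0.93 ± 0.24 log2 at stage 4 against stage 3 (edgeR adjusted p = 0.011). Both were kept in 19 of 19 alternatives. The difference of VIT_19s0177g00030 was 3.60 ± 0.86 log2 higher at stage 3 than at stage 1 (edgeR adjusted p = 0.0096), and that of VIT_19s0140g00120 was 1.44 ± 0.34 log2 higher (edgeR adjusted p = 0.0057). At equal depth the edgeR adjusted p of VIT_19s0140g00120 was 0.053. For VIT_14s0108g00740 the difference in skin was smaller at stage 3 than at stage 1 by -1.28 ± 0.35 log2 (edgeR adjusted p = 0.039). This held in 7 of 19 alternatives. It was lost on leaving out any of the 12 libraries other than seeded skin replicate 2 of stage 1 and replicate 1 of stage 3, with edgeR adjusted p from 0.061 to 0.092, and at equal depth (-1.23 log2, 0.11). With no filter it was also lost (-1.29 log2, edgeR adjusted p = 0.053). In this step 4 of 8 tested members were called in skin, beside 7.86% of all genes, and 1 of 6 in flesh, beside 8.03%.

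In flesh the member called was VIT_14s0006g00640, whose difference was 0.87 ± 0.26 log2 higher at stage 3 than at stage 1 (edgeR adjusted p = 0.031, kept in 11 of 19 alternatives). It was lost without seedless replicates 2 or 3 of stage 1, seedless replicates 2 or 3 of stage 3, seeded replicates 1 or 3 of stage 1 or seeded replicate 2 of stage 3, with edgeR adjusted p from 0.055 to 0.16, and at equal depth (0.79 log2, 0.3). From stage 3 to stage 4 the difference changed for 2 of 8 members in skin (7.50% of all genes) and 1 of 6 in flesh (4.07%). From stage 1 to stage 4 it changed for 4 of 8 in skin (15.4%) and 1 of 6 in flesh (12.2%). Between the tissues it differed for 1 of 8 members at stage 1 (2.18%), 0 of 8 at stage 3 (0.445%) and 0 of 8 at stage 4 (0.128%) by edgeR, and by DESeq2 the later stages also gave 0 calls. At an unadjusted p under 0.05 there were 2 members at stage 3, VIT_14s0108g00740 and VIT_10s0116g00410, and 1 at stage 4, VIT_14s0006g00640. For VIT_10s0116g00410 the flesh side of that test held 0 seedless and 2 seeded reads, the latter in 1 library. The 8 members tested between the tissues hold VIT_19s0177g00030 and VIT_10s0116g00410, with 17 and 8 reads over the 18 flesh libraries. These genes entered the test through skin.

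Ripening from stage 1 to stage 3 and on to stage 4 was followed within each treatment. The comparisons of stage 3 with 1 and of stage 4 with 3 share the stage 3 libraries. VIT_07s0104g00930 rose at stage 4 against stage 3 in all 4 series, by 0.66 ± 0.17 log2 in seedless flesh, 1.39 ± 0.18 in seeded flesh, 0.73 ± 0.17 in seedless skin and 1.66 ± 0.17 in seeded skin (edgeR adjusted p = 0.0052, 9.5e-08, 0.0023 and 8.8e-10 in that order). In seeded skin it had first fallen at stage 3 against stage 1, by 1.57 ± 0.18 log2 (edgeR adjusted p = 1.9e-08), while in seedless skin that change was 0.09 ± 0.18 log2 (edgeR adjusted p = 0.87). In seeded flesh the change at stage 3 against stage 1 was -0.36 ± 0.23 log2 (edgeR adjusted p = 0.29), and at equal depth it was -0.98 log2 (edgeR adjusted p = 0.021). In the seedless flesh series the rise was lost without stage 3 replicate 2 (edgeR adjusted p = 0.072) or stage 4 replicate 3 (0.076), and in seedless skin at equal depth (0.40 log2, 0.46).

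VIT_14s0108g00740 fell in flesh at stage 4 against stage 3, by 0.87 ± 0.17 log2 in seedless and 1.79 ± 0.19 log2 in seeded berries (edgeR adjusted p = 0.00024 and 1.1e-09 in that order). The fall in seedless flesh was lost at equal depth (edgeR adjusted p = 0.11). In skin that step did not pass the test, with 0.14 ± 0.23 log2 in seedless and -0.04 ± 0.24 log2 in seeded berries. Between stages 1 and 3 it rose in seeded skin by 1.21 ± 0.25 log2 (edgeR adjusted p = 0.0041), and the change in seedless skin was -0.07 ± 0.23 log2.

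Among the DELLA genes VIT_01s0011g05260 rose at stage 4 against stage 3 in flesh, by 1.41 ± 0.42 log2 in seedless and 1.51 ± 0.53 log2 in seeded berries (edgeR adjusted p = 0.016 and 0.026). In seeded flesh it had fallen at stage 3 by 2.39 ± 0.61 log2 (edgeR adjusted p = 0.005), and in seeded skin by 1.74 ± 0.45 log2 (edgeR adjusted p = 0.0045). Its reads are few, and single libraries decide several of these calls: without seeded flesh replicates 2 and 3 of stage 4 in turn the edgeR adjusted p of the rise in seeded flesh was 0.066 and 0.12, without seeded flesh replicate 1 of stage 3 the rise at stage 4 in seeded flesh was 1.00 log2 (edgeR adjusted p = 0.19), and without seeded flesh replicate 1 of stage 1 the change at stage 3 was -1.77 log2 (edgeR adjusted p = 0.1). In seeded skin the fall was lost without replicate 3 of stage 1 (edgeR adjusted p = 0.066). In seedless flesh the rise had an edgeR adjusted p of 0.1 without stage 3 replicate 2, 0.059 without stage 4 replicate 1 and 0.095 without stage 4 replicate 3. In seeded skin it rose again at stage 4, by 1.20 ± 0.43 log2 (edgeR adjusted p = 0.031), which was lost without replicates 1 (0.11) or 2 (0.072) of stage 3 or replicates 2 (0.091) or 3 (0.07) of stage 4. VIT_14s0006g00640 fell at stage 3 in seeded flesh by 0.78 ± 0.20 log2 (edgeR adjusted p = 0.004), and this was lost without seeded flesh replicate 3 of stage 1 (edgeR adjusted p = 0.093).

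In skin VIT_11s0016g04630 fell at stage 3 in seeded berries by 0.72 ± 0.14 log2 (edgeR adjusted p = 0.00016, kept in 13 of 13 alternatives). At stage 4 against stage 3 it fell in seedless skin by 0.44 ± 0.13 log2 and rose in seeded skin by 0.35 ± 0.13 log2 (edgeR adjusted p = 0.019 and 0.042), and the difference between these changes, -0.80 ± 0.19 log2, passed the test itself (edgeR adjusted p = 0.0051) but not at equal depth (-0.56 log2, edgeR adjusted p = 0.33). The fall in seedless skin was lost without stage 3 replicate 2 (edgeR adjusted p = 0.14) or without stage 4 replicates 2 (0.12) or 3 (0.071), and at equal depth (0.088). The rise in seeded skin was lost without any 1 replicate of stage 3 (edgeR adjusted p = 0.06, 0.088 and 0.13), without stage 4 replicates 1 (0.24) or 3 (0.16), and at equal depth (0.04 log2, 0.91).

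For VIT_19s0140g00120 the fall at stage 4 against stage 3 was called in skin and in seeded flesh. In skin it was lower at stage 4 than at stage 3 by 0.89 ± 0.25 log2 in seedless and 0.83 ± 0.26 log2 in seeded berries (edgeR adjusted p = 0.011 and 0.012), and in seeded skin it had already fallen by 1.13 ± 0.24 log2 at stage 3 (edgeR adjusted p = 0.00063). The stage 4 calls were lost without seedless skin replicate 3 of stage 4 (edgeR adjusted p = 0.066), and in seeded skin without replicate 3 of stage 3 (0.1) or of stage 4 (0.13). At equal depth they had edgeR adjusted p of 0.24 in seedless and 0.39 in seeded skin. In seeded flesh it fell by 1.99 ± 0.72 log2 (edgeR adjusted p = 0.035), lost without replicates 1 (0.1) or 3 (0.13) of stage 3 or replicates 1 (0.14) or 3 (0.087) of stage 4. In seedless flesh the change was -1.61 ± 0.56 log2 (edgeR adjusted p = 0.056), past the threshold in 4 of 12 alternatives. The changes in seedless and seeded flesh did not differ in their own test (0.39 ± 0.91 log2, edgeR adjusted p = 0.9). VIT_19s0177g00030 fell in seeded skin by 2.3 ± 0.57 log2 at stage 3 (edgeR adjusted p = 0.0048), and VIT_10s0116g00410 was called at no step.

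Of the tested members, 0 of 6 were called in seedless flesh between stages 1 and 3 (beside 5.78% of all genes) and 3 of 6 between stages 3 and 4 (14.5%). In seeded flesh 2 of 6 (17.7%) and 4 of 6 (31.7%) were called at those steps. In seedless skin 0 of 8 (6.14%) and 3 of 8 (13.3%) were called, and in seeded skin 6 of 8 (21.7%) and 4 of 8 (31.2%). In the 2 steps with 0 calls by edgeR, DESeq2 also called 0 members, and an unadjusted p under 0.05 was found for VIT_14s0108g00740 and VIT_07s0104g00930 in seedless flesh and for 0 members in seedless skin.

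The receptor gene VIT_14s0108g00740 and the GA 2-oxidase genes were higher in skin than in flesh at each stage. Averaged over the treatments, 6 of 8 tested members were called at stage 1, all higher in skin, beside 35.4% of all genes in either direction and 20.1% higher in skin. At stage 3 it was 5 of 8, all higher in skin, beside 40.1% in either direction and 22.7% higher. At stage 4 it was 4 of 8, all higher in skin, beside 41.3% in either direction and 23.3% higher. These counts hold VIT_19s0177g00030 and VIT_10s0116g00410 at each stage, which reached the minimum level of the filter (2.52 CPM) in 1 and 0 of the 18 flesh libraries in that order. These genes entered the test through skin, where they are high, so the counts are a description and support nothing. For VIT_14s0108g00740 the 6 skin libraries of stage 1 ran from 111 to 607 CPM with a median of 413 CPM, against 59.5 to 80.2 CPM with a median of 72.4 CPM in flesh. At stage 4 skin ran from 291 to 672 CPM with a median of 463 CPM, and flesh from 16.7 to 30.2 CPM with a median of 24.1 CPM. The tissues did not overlap at any stage. The log2 difference of skin minus flesh was 2.10 ± 0.17, 2.99 ± 0.16 and 4.36 ± 0.18 at stages 1, 3 and 4 (edgeR adjusted p = 1.3e-10, 1e-14 and 2.1e-17), kept in 10 of 10 alternatives each. The skin libraries of stage 1 include the low seeded ones, so this average covers groups that differ. All tests of skin against flesh counted same-numbered libraries of both tissues as independent, and no alternative modelled them as pairs.

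The GA 2-oxidase genes were also higher in skin. VIT_19s0140g00120 had a median of 21.9 CPM in skin and 7.73 CPM in flesh at stage 1, where the ranges overlap (1.26 ± 0.32 log2, edgeR adjusted p = 0.0015). By stage 4 the medians were 9.03 CPM in skin and 1.90 CPM in flesh with no overlap (2.33 ± 0.36 log2, edgeR adjusted p = 1.5e-06). For VIT_10s0116g00410 the pooled reads were 174 in skin and 1 in flesh at stage 1, a ratio of 151 after scaling (interval 26.7 to 5990), then 190 in skin and 2 in flesh at stage 3 (ratio 108, interval 29.6 to 901), and 140 in skin and 5 in flesh at stage 4 (ratio 31.2, interval 13.1 to 97.7). VIT_19s0177g00030 had skin-to-flesh ratios of 13.2, 23.6 and 37.2 at stages 1, 3 and 4 (intervals 6.50 to 31.3, 10.5 to 65.5 and 12.4 to 183), and 100 of its 122 stage 1 skin reads came from the seeded berries.

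The other members were called between the tissues at 1 stage or none. VIT_07s0104g00930 was higher in skin at stage 1 by 0.70 ± 0.15 log2 (edgeR adjusted p = 0.00011), and at stages 3 and 4 its differences were -0.11 ± 0.13 and 0.04 ± 0.12 log2. VIT_11s0016g04630 was higher in skin at stage 1 by 0.37 ± 0.11 log2 (edgeR adjusted p = 0.007), which was lost at equal depth (edgeR adjusted p = 0.11). VIT_14s0006g00640 was higher in skin at stage 3 by 0.37 ± 0.12 log2 (edgeR adjusted p = 0.011), and this was lost without the libraries numbered 1 (edgeR adjusted p = 0.12) or 2 (0.073), and at equal depth (0.18). VIT_01s0011g05260 was not called between the tissues at any stage.

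When the 12 groups were ordered by mean level, 5 of the 11 neighbouring pairs did not overlap for VIT_14s0108g00740. Seedless skin of stages 4, 1 and 3 stood on top, followed by seeded skin of stages 3 and 4 and then seeded skin of stage 1. Flesh of stages 1 and 3 came next, and flesh of stage 4 was lowest, with seedless above seeded. For VIT_07s0104g00930 seeded skin of stages 4 and 1 and seeded flesh of stage 4 formed the top with mutual overlap, 1 break followed, and the rest overlapped in turn. Each of VIT_19s0177g00030 and VIT_19s0140g00120 had 1 break, below seeded skin of stage 1, and VIT_10s0116g00410 had 2. The DELLA genes had 0.

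Other genes with the pattern most like each member were looked up as Pearson correlations of log2(CPM + 1) over the 12 group means, among 11346 genes that averaged 5 CPM or more. These are descriptions over 12 points that share libraries and scaling. For VIT_14s0108g00740 the closest were VIT_12s0057g00020 (r = 0.977) and VIT_03s0063g01150 (r = 0.971). VIT_07s0104g00930 was closest to VIT_01s0113g00420 (r = 0.938) and VIT_03s0038g03040 (r = 0.927). VIT_19s0140g00120 was closest to VIT_13s0067g02630 (r = 0.981) and VIT_08s0007g02360 (r = 0.98). VIT_14s0006g00640 was closest to VIT_04s0008g02000 (r = 0.938) and VIT_19s0014g00870 (r = 0.913), VIT_11s0016g04630 to VIT_07s0104g00970 (r = 0.896) and VIT_07s0005g02300 (r = 0.895), and VIT_01s0011g05260 to VIT_13s0074g00590 (r = 0.853) and VIT_04s0008g01120 (r = 0.849). Within the set, the GID1 genes were correlated at -0.17 over the 12 groups and VIT_14s0108g00740 with VIT_19s0140g00120 at 0.72.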

How the data were processed

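RNA from berry skin and flesh was made into Lasy-seq v1.1 libraries, which index transcripts at reverse transcription and read mainly their 3′ ends, per the labels' protocols. The authors deposited raw read counts, which are whole and not normalized. Trimming used fastp 0.20.0, alignment HISAT2 2.2.1 and counting featureCounts, per the submitters' processing notes. Genome build, annotation, strand setting and multi-mapping rule: not given in the sources used here, so near-identical or overlapping genes could share counts. The 30661 rows comprise 29971 VIT and 690 ENSRNA identifiers, of which the ENSRNA ones hold up to 3.14% of a library's counts.

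Differences were tested in R 4.3.3 with edgeR 4.0.16: filterByExpr with a minimum count of 10, TMM scaling and its quasi-likelihood test with robust dispersions. P-values were adjusted by Benjamini-Hochberg over every gene of a contrast, at a threshold of 0.05. Flesh and skin were fitted apart, each with 18 libraries and 6 group means; skin was set against flesh in a fit of all 36 libraries. A standard error is the log2 difference over the square root of F. Printed CPM are scaled by TMM over all libraries. Intervals of read ratios are exact, at the 95% level, and cover counting error only, as does the limit of 3 counts. The tests were run on simulated counts first. Alternatives were DESeq2 size factors, the DESeq2 1.42.0 test, no filter, a minimum count of 30, the replicate number as a block, libraries thinned to 608901 counts, no ENSRNA rows, only the 6 libraries compared, and leaving out each library.

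The members and lists were chosen with earlier results of these data known. All 9 members are named, and for those with a mean of at least 5 CPM the 2 genes most like them. Lists of other gibberellin genes and of seed and cuticle markers were to be matched by product name; no annotation was used here, so they have no result. Libraries of a group differed by at least 3.44 times the variance of counting, so each was counted as a sample. The labels do not say whether the replicates are separate vines or berries. P-values therefore measure only the spread among these libraries, which may be technical.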

Additional observations from a re-analysis of the deposited data

Results flagged for a closer look

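14 of the 66 tests of whether the seedless-seeded difference changes between stages or tissues passed the adjusted threshold, for 7 of the 9 genes, and each is listed for that reason. Of all genes, 0.128% to 15.4% passed in a single such comparison. The stage comparisons of a tissue share libraries, so a gene can be listed more than once for the same stage, and the 14 are not independent. No explanation was weighed. Values are log2 differences of the seedless-seeded difference, and p values are from edgeR, adjusted over all genes.

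In skin, from stage 1 to stage 3, the difference moved by -1.28 for VIT_14s0108g00740 (edgeR adjusted p = 0.039), 1.65 for VIT_07s0104g00930 (2.3e-05), 3.60 for VIT_19s0177g00030 (0.0096) and 1.44 for VIT_19s0140g00120 (0.0057). From stage 3 to stage 4 in skin it moved by -0.80 for VIT_11s0016g04630 (edgeR adjusted p = 0.0051) and -0.93 for VIT_07s0104g00930 (0.011), in 2 of 8 tested members beside 7.50% of all genes. From stage 1 to stage 4 in skin it moved by -1.11 for VIT_14s0108g00740 (edgeR adjusted p = 0.047), 0.73 for VIT_07s0104g00930 (0.035), 5.63 for VIT_19s0177g00030 (0.00017) and 1.38 for VIT_19s0140g00120 (0.0075), in 4 of 8 members beside 15.4%.

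In flesh it moved by 0.87 for VIT_14s0006g00640 from stage 1 to stage 3 (edgeR adjusted p = 0.031), by 0.91 for VIT_14s0108g00740 from stage 3 to stage 4 (0.029, beside 4.07% of all genes called) and by 2.04 for VIT_01s0011g05260 from stage 1 to stage 4 (0.046, beside 12.2%). Between the tissues at stage 1 the difference of VIT_14s0108g00740 was 1.83 higher in skin (edgeR adjusted p = 0.0042).

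Of these, the 2 changes of VIT_07s0104g00930 next to stage 3 held in 19 of 19 alternatives, those of VIT_19s0177g00030 in 18 of 18 without equal depth, where it was not tested, and those of VIT_19s0140g00120 and VIT_11s0016g04630 in 18 of 19. The exception for these was equal depth, where VIT_19s0140g00120 had 1.73 from stage 1 to 3 (edgeR adjusted p = 0.053) and 1.44 from stage 1 to 4 (0.15), and VIT_11s0016g04630 had -0.56 (0.33). The call for VIT_14s0108g00740 between the tissues was lost without the libraries numbered 3 (edgeR adjusted p = 0.24). In skin, that for VIT_14s0108g00740 from stage 1 to 3 was lost on leaving out any of the 12 libraries but seeded replicate 2 of stage 1 and seeded replicate 1 of stage 3 (edgeR adjusted p 0.061 to 0.092), at equal depth (-1.23, 0.11) and with no filter (-1.29, 0.053). Its call from stage 1 to 4 was kept in 6 of 19 alternatives. It was lost on leaving out any of the 12 but seeded replicate 2 of stage 1 and seeded replicate 1 of stage 4 (0.06 to 0.11), and at equal depth (-1.03, 0.13). It was also lost with DESeq2 size factors (-1.07, edgeR adjusted p = 0.054) and with no filter (-1.11, 0.071). That for VIT_07s0104g00930 from stage 1 to 4 was lost on leaving out any of the 12 but seedless replicate 3 of stage 1, seedless replicate 2 of stage 4 and seeded replicate 1 of stage 1 (0.053 to 0.11). At equal depth that change was 0.13 with an edgeR adjusted p of 0.88.

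In flesh the call for VIT_14s0006g00640 was kept in 11 of 19 alternatives and lost on leaving out any of 7 of the 12 libraries (edgeR adjusted p 0.055 to 0.16), and at equal depth (0.79, 0.3). The call for VIT_14s0108g00740 was lost without replicates 2 or 3 of seedless stage 3, 1 or 2 of seedless stage 4, 2 or 3 of seeded stage 3 or 1 or 3 of seeded stage 4 (0.056 to 0.11), and at equal depth (1.02, 0.28). The call for VIT_01s0011g05260 was lost without any 1 seedless replicate of stage 1, seedless replicates 1 or 3 of stage 4, or seeded replicate 1 of stage 1 or of stage 4 (0.058 to 0.26), and with the replicate block (0.057). VIT_19s0177g00030 and VIT_01s0011g05260 rest on few reads.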

How the results depend on the processing

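No called difference of a member changed sign under any alternative run, while some differences near 0 that were not called did. The replicate numbers were treated as not pairing the samples: correlations of deviations between same-numbered libraries ran from -0.10 to 0.16 between seedless and seeded groups, -0.10 to 0.19 between stages and 0.04 to 0.23 between skin and flesh, and no pair of groups had all 3 above 0.1. Libraries nevertheless correlated best with their own number in 24 of 36 cases for seedless and seeded, 26 of 48 for stages and 36 of 36 for skin and flesh. Among 3 numbers, the own number was thus the best match in most cases of each kind, and in all cases for skin and flesh. Same-numbered libraries therefore seem to share something, within a tissue as well as between skin and flesh. The main tests, within and between the tissues, counted them as independent. The replicate block fits an effect of each number over all groups, so it does not model pairs of libraries. With the replicate block VIT_10s0116g00410 was called in skin at stage 3 (edgeR adjusted p = 0.027), and VIT_14s0108g00740 (0.046) and VIT_19s0177g00030 (0.047) in skin at stage 4. The block's counts are given below. Depth limits the low genes and stage 1 of the seeded berries. The counts below are of members called, and those over all genes follow at the end.

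At equal depth the count was 1 in flesh stage 1, 0 in flesh stage 4 and 0 in skin stage 3 for seedless against seeded berries. The count leaves out members with too few reads to be tested at that depth. Between stages 3 and 4 it was 1 in seedless flesh, 2 in seeded flesh, 0 in seedless skin and 1 in seeded skin. Changes of the seedless-seeded difference numbered 1, 1 and 0 in skin (stages 1 to 3, 3 to 4, 1 to 4) and 0, 0 and 0 in flesh. Skin against flesh numbered 3, 2 and 2 at stages 1, 3 and 4. With no filter it was 2 in flesh stage 4, 1 between stages 1 and 3 of seedless flesh, 2 each in skin stages 3 and 4, and 1 for the tissue difference of stage 3. For skin stages 3 and 4 it was 2 and 2 with DESeq2 and with a minimum count of 30, 2 and 3 with the replicate block, and 3 and 3 with only the 6 libraries compared. For the change from stage 1 to 3 in flesh it was 2 with DESeq2 size factors, a minimum count of 30 or the replicate block and 3 with the DESeq2 test or no filter. From stage 1 to 4 in flesh it was 2 with size factors, DESeq2, no filter or a minimum count of 30 and 0 with the replicate block.

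Leaving out 1 library at a time gave 1 to 3 in flesh stage 1, 0 to 1 in flesh stages 3 and 4 and skin stage 3, and 1 to 2 in skin stage 4. Between stages it gave 0 to 1 and 1 to 4 in seedless flesh, 1 to 2 and 2 to 4 in seeded flesh, and 1 to 3 between stages 3 and 4 of both seedless and seeded skin. Changes of the difference in flesh ran from 0 to 2 each, and in skin from stage 1 to 4 from 2 to 3, against 4 with all libraries. The tissue difference of stage 1 ran from 0 to 1.

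Over all genes, equal depth gave 1446, 620 and 172 calls in skin and 1331, 579 and 182 in flesh for seedless against seeded berries at stages 1, 3 and 4, against 2872, 1507 and 494 in skin and 2339, 1460 and 505 in flesh at full depth. Only the 6 libraries compared gave 785 in skin stage 4. Leaving out 1 library gave as few as 242 in flesh stage 4 and 253 in skin stage 4. For skin against flesh equal depth gave 3150, 2984 and 3171 calls, against 5251, 5946 and 6126. For the tissue difference of stage 1 it gave 130, and leaving out the libraries numbered 3 gave 80, against 324. For that of stages 3 and 4 the counts ran from 11 to 212 and from 1 to 113, against 66 and 19. For stage steps equal depth gave 313 to 2080 calls, against 789 to 4434. Changes of the seedless-seeded difference between stages also had fewer calls over all genes in some alternatives. The lowest counts were 486, 359 and 915 in skin (stages 1 to 3, 3 to 4, 1 to 4), against 1115, 1064 and 2180. In flesh they were 458, 163 and 709, against 1095, 555 and 1665.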
